A study of Mus musculus with 93 samples.

Results

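The genes described here are 10 genes of the NRF2 antioxidant response in mouse liver. They were picked by name from the 53465 genes of the count table, where each matched 1 Ensembl identifier, and all 10 passed the filter on low counts that left 19110 genes for testing. Livers came from 93 male mice of 7 inbred strains, of which C57BL/6J, DBA/2J, A/J and 129S1/SvImJ are domesticated and WSB/EiJ, CAST/EiJ and PWK/PhJ are wild-derived. Every mouse, controls included, was kept at 30 °C (thermoneutrality) from 6 weeks of age and took its diet from week 7 for 17 weeks, until collection at 24 weeks. The western-style diet (WD) drew 40% of its energy from fat and 43% from carbohydrate, the control diet (CD) 10% and 73%, and both gave 17% as protein. C57BL/6J gave 8 mice on each diet and WSB/EiJ 6 on each. There were 5 CD and 6 WD mice of A/J, 7 CD and 6 WD mice of 129S1/SvImJ, 7 CD and 8 WD mice of CAST/EiJ, and 6 CD and 7 WD mice each of DBA/2J and PWK/PhJ. No mouse carried an engineered allele, and each mouse was a library of its own.

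NRF2, encoded by Nfe2l2, is a transcription factor that is held in the cytoplasm and sent for degradation by KEAP1, a sensor whose cysteines react with electrophiles and oxidants. When KEAP1 is modified, NRF2 enters the nucleus, pairs with a small MAF protein and binds the antioxidant response element, a short sequence in the control regions of its target genes. The targets make glutathione, keep thioredoxin and peroxiredoxin reduced, remove quinones and haem and supply NADPH, and in liver they are best known for the defence of hepatocytes against toxic chemicals and lipid peroxidation.

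The sequence by which NRF2 is known to act is shown first, because it is what the target genes are thought to have in common. The core of the element, TGACNNNGC, was searched on both strands in RefSeq promoters (GRCm38.p6, 250 bases before to 50 after each annotated start). Of the 8 genes with an entry in the promoter table (Nfe2l2, Keap1, Gclm, Slc7a11, Txnrd1, Srxn1, Nqo1 and G6pdx), 5 had a match, against 14.0% of the 27025 genes in the table and 12.4% of its 32851 promoters. Each match is printed 5′ to 3′ on the strand that reads as the core, which is in capitals, with 10 bases on either side.
Nfe2l2 (chr2:75704885-75704913, minus strand, core centred at −236): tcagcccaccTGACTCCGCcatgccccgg
Gclm (chr3:122245413-122245441, minus strand, core centred at −130): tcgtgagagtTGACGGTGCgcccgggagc
Txnrd1 (chr10:82859104-82859132, minus strand, core centred at −88 of 1 of 3 listed starts): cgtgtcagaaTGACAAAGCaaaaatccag
G6pdx (chrX:74428919-74428947, plus strand, core centred at −53): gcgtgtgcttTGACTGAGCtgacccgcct
Srxn1 (chr2:152105542-152105570, minus strand, core centred at 32 after the start): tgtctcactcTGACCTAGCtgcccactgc
A match is a description of letters and not a measured binding site. Slc7a11, Nqo1 and Keap1 held no such letters in this window. All 5 cores carry the same 6 fixed bases because the search required them, and they differ in the 3 free ones.

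The libraries held 40020424 to 49894856 reads on genes (median 46618609), so counts were deep for every gene here except Slc7a11, whose counts ran from 0 to 178 per mouse with a median of 9. Reads of every strain were aligned to the C57BL/6J genome, and the mean unmapped share of a group was between 2.11% ± 0.145 (SD, n = 6; A/J, WD) and 13.3% ± 1.01 (n = 8; CAST/EiJ, WD), so levels set side by side across strains carry differences in alignment as well. The share also differed between diets within strains. In PWK/PhJ it was 3.50% ± 0.708 (n = 6) on CD and 7.88% ± 1.18 (n = 7) on WD. In WSB/EiJ it was 4.52% ± 1.61 and 7.42% ± 2.52 (n = 6 each), and CAST/EiJ on CD was at 10.8% ± 1.66 (n = 7). DBA/2J went the other way, with 6.45% ± 0.620 (n = 6) on CD and 4.77% ± 0.665 (n = 7) on WD. Alb, which encodes albumin and defines hepatocytes, was between 37566 and 184302 CPM (reads of a gene scaled to the size of the library) in every mouse. The setting for strand was not stated, and G6pdx shares 418 exonic bases with Ikbkg on the other strand, Keap1 510 with Gm16754 and Gclm 296 with Gm17494, so reads from these stretches could not be told apart. In C57BL/6J on CD, 3 of the 8 mice (replicates 2, 4 and 6) stood apart in 4 of the 10 genes, and main values of this group are given with and without them. These mice were picked after their values were seen.

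Levels below are CPM after TMM scaling, a correction for differences in library composition, unless stated. Compared per length of exon (RPKM), Gclc was the highest of the 10 genes on CD, with a mean over the 7 strains of 71.5 RPKM. Nfe2l2 (26.7), Gclm (25.3), Txnrd1 (16.7), Hmox1 (15.0) and Srxn1 (12.8) formed a middle range, Keap1 (7.84), G6pdx (4.58) and Nqo1 (3.48) were lower, and Slc7a11 was near the limit of detection at 0.0180 RPKM. Whether strains differed on CD was asked with limma's F test over the 7 strain means. All 10 genes passed, with adjusted p from 1.1e-39 for Gclm to 0.0018 for Slc7a11, but so did 93.7% of all genes tested. On WD all 10 passed as well, beside 93.9% of all genes. In pairwise contrasts on CD, Slc7a11 was higher in C57BL/6J than in 129S1/SvImJ (adjusted p = 0.016), WSB/EiJ (0.0017), CAST/EiJ (0.00022) and PWK/PhJ (0.026). No contrast of C57BL/6J with another strain passed for Slc7a11 without the 3 mice set apart (adjusted p from 0.062 to 0.87).

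**Figure D1:**
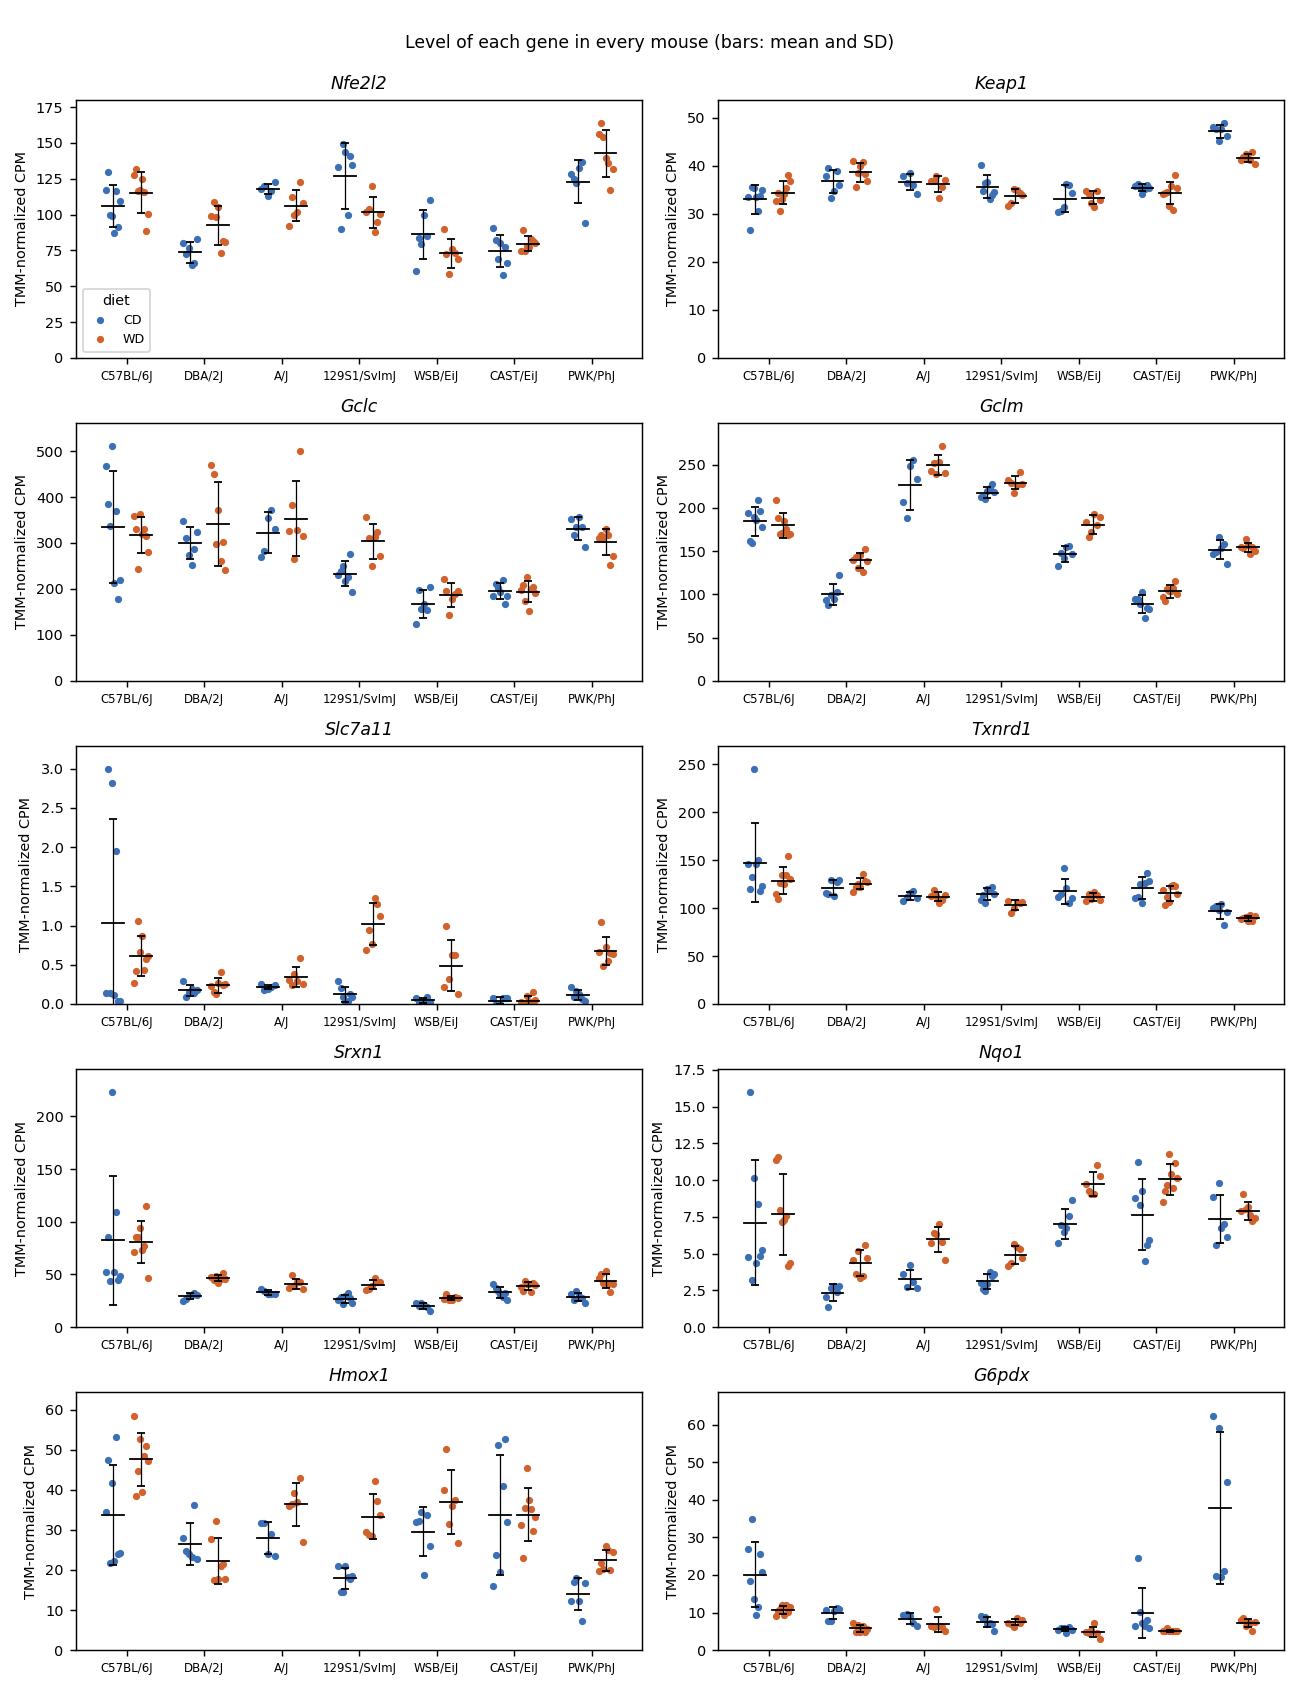
Each panel plots 1 gene, with the strain on the horizontal axis and TMM-normalized CPM on the vertical axis, linear from 0. Points are mice (blue CD, orange WD), and bars give the group mean and SD, cut off at 0. Nqo1 on CD was at most 4.21 CPM in every mouse of DBA/2J, A/J and 129S1/SvImJ, 3 C57BL/6J mice on CD stood out in Slc7a11, and G6pdx on CD was highest in PWK/PhJ.

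The diet comparison asked which of the 10 genes changed with WD in each strain. By limma-voom, in 129S1/SvImJ 5 genes rose and 1 fell, beside 28% of all genes called in either direction. DBA/2J had 4 genes up and 1 down (background 18%), and PWK/PhJ 3 up and 2 down (29.6%). C57BL/6J and CAST/EiJ each had 1 up and 1 down (26.2% and 19.5%), WSB/EiJ had 2 up (8.94%) and A/J 1 up (9.03%). Set against these backgrounds, the counts of 129S1/SvImJ and DBA/2J were the farthest above the share of all genes. Those of PWK/PhJ and WSB/EiJ were above it by few genes, and those of C57BL/6J, CAST/EiJ and A/J were near it. Whether the 10 genes as a set were called more often than other genes was not tested. CD and WD mice did not overlap at all for 4 genes in 129S1/SvImJ (beside 16.4% of all genes), 4 in PWK/PhJ (12.6%), 4 in DBA/2J (7.28%) and 4 in WSB/EiJ (4.36%). A/J had 1 such gene (8.08%), whereas every gene overlapped in C57BL/6J (1.78%) and CAST/EiJ (2.23%). The median log2 fold change of the 10 genes was positive in every strain, from 0.05 in CAST/EiJ to 0.24 in WSB/EiJ, beside medians of all genes between −0.01 and 0.02. The 10 genes were chosen for their place in the pathway, and this median is a description of them alone.

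**Figure D2:**
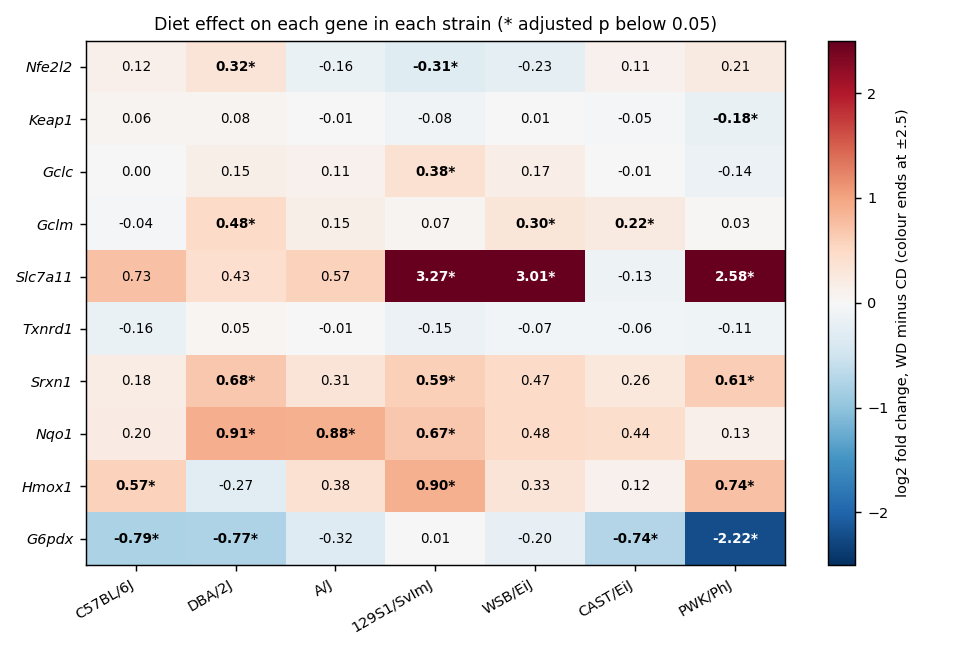
Rows are the 10 genes and columns the 7 strains. Colour and number give the log2 fold change of WD over CD from limma-voom, and a star marks an adjusted p below 0.05. Slc7a11 had the highest values (2.58 to 3.27 in 3 strains), G6pdx the lowest (−2.22 in PWK/PhJ), and Txnrd1 carried no star.

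No gene was called in all 7 strains, and the difference between strains was tested directly. The diet effect differed between strains by limma's F test for 6 of the 10 genes, beside 37.5% of all genes: G6pdx (adjusted p = 1.5e-06), Gclm (1.4e-05), Slc7a11 (0.00078), Nfe2l2 (0.0018), Hmox1 (0.0049) and Keap1 (0.018). For Nqo1 (0.17), Srxn1 (0.33), Gclc (0.35) and Txnrd1 (0.55) a difference between strains was not shown. Each strain's effect was then set against the mean of the other 6. For DBA/2J 3 genes passed (beside 7.77% of all genes), for PWK/PhJ 2 (16.3%), for 129S1/SvImJ 2 (6.28%) and for C57BL/6J 1 (4.69%). The lowest adjusted p among the 10 genes was 0.69 for A/J (0.466% of all genes called), 0.32 for WSB/EiJ (0.947%) and 0.20 for CAST/EiJ (14.5%). With the 3 C57BL/6J mice left out, Srxn1 (0.039) and Nqo1 (0.038) passed the F test too. The single-strain calls above then all held, and Slc7a11 in DBA/2J (adjusted p = 0.021), G6pdx in 129S1/SvImJ (0.035), Nqo1 in PWK/PhJ (0.015) and, in CAST/EiJ, Slc7a11 (0.012) and Srxn1 (0.039) were added. All 23 called changes had the same sign in each cohort of their strain (cohort is the batch number in the labels, and every strain spanned 2 or 3 with both diets in each). The cohorts are parts of the same mice that gave the calls, so this is a description and not a replication. In cohort 1 of CAST/EiJ, replicate 1 was the only CD mouse.

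Of the regulators, Nfe2l2 (chromosome 2, 75675513 to 75704641, minus strand), which encodes NRF2 itself, rose in DBA/2J and fell in 129S1/SvImJ. In DBA/2J the lowest, median and highest mice were at 65.0, 74.6 and 83.0 CPM on CD and 73.5, 98.2 and 108 on WD. The ranges overlapped in part, and the log2 fold change was 0.32 ± 0.11 (SE), with an adjusted p of 0.026. In 129S1/SvImJ they were at 89.6, 134 and 149 CPM on CD and 87.6, 101 and 120 on WD, and 5 of the 7 CD mice were above every WD mouse. The log2 fold change there was −0.31 ± 0.11 (adjusted p = 0.022). Each of these opposite effects stood apart from the average over the remaining strains (adjusted p = 0.038 in DBA/2J, 0.036 in 129S1/SvImJ). They were small, and leaving out 1 mouse lifted the adjusted p to at most 0.073 in DBA/2J (4 of 13 mice) and 0.072 in 129S1/SvImJ (3 of 13). The 129S1/SvImJ fall also missed the threshold with upper-quartile factors (0.088) and in a separate fit for the strain (0.0504), and the DBA/2J rise without a filter on low counts (0.082).

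On CD Nfe2l2 fell into a lower set of DBA/2J (73.8 ± 7.36 CPM, SD, n = 6), CAST/EiJ (74.7 ± 11.2, n = 7) and WSB/EiJ (86.3 ± 17.0, n = 6), and a higher set of C57BL/6J (106 ± 14.6, n = 8), A/J (118 ± 3.60, n = 5), PWK/PhJ (123 ± 15.0, n = 6) and 129S1/SvImJ (127 ± 23.0, n = 7). The step from WSB/EiJ to C57BL/6J was the only pair of neighbours in this order that differed (adjusted p = 0.0081). Without the 3 mice C57BL/6J was at 101 ± 12.5 CPM (n = 5) and this step did not pass (adjusted p = 0.078). Over all genes and pairs of strains, 48% of such differences passed on CD and 50.4% on WD. On WD PWK/PhJ was the highest at 143 ± 16.3 CPM (n = 7) and differed from the next strain, C57BL/6J at 115 ± 14.4 (n = 8, adjusted p = 0.0063).

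Keap1 (chromosome 9, 21229730 to 21239361, minus strand), the inhibitor of NRF2, was the steadiest gene between strains apart from PWK/PhJ. The other 6 strains had CD means between 33.0 and 36.7 CPM, and none of their neighbours in the order differed. Of all 21 pairs of strains 12 differed on CD, which is more than the pairs with PWK/PhJ. Some of the other 6 strains that lay farther apart in this order thus differed too. PWK/PhJ stood above all 6 at 47.2 ± 1.36 CPM (n = 6), against 36.7 ± 2.46 (n = 6) in DBA/2J, the next strain (adjusted p = 1.9e-09). PWK/PhJ was also where Keap1 changed with diet. Its lowest, median and highest mice were at 45.1, 47.6 and 48.8 CPM on CD and 40.3, 41.5 and 42.8 on WD, and no WD mouse reached a CD mouse. The log2 fold change was −0.18 ± 0.048 (adjusted p = 0.0023), a small effect with a narrow error that stood apart from the average over the remaining strains (adjusted p = 0.0099).

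Glutathione synthesis is represented by 3 genes. Gclc encodes the catalytic subunit and Gclm the modifier subunit of glutamate-cysteine ligase, the rate-limiting enzyme, and Slc7a11 encodes the cystine importer xCT that feeds it. Gclc (chromosome 9, 77754535 to 77794485, plus strand) rose only in 129S1/SvImJ among the 7 tests, and its effect was not shown to differ between strains. There the lowest, median and highest mice were at 193, 231 and 277 CPM on CD and 249, 311 and 357 on WD. The groups overlapped at their edges, and the log2 fold change was 0.38 ± 0.14 with an adjusted p of 0.037, which 7 of the 13 leave-one-out fits did not keep (at most 0.093), nor did the fit without a filter on low counts (0.076). Between strains Gclc was lowest in WSB/EiJ (167 ± 30.0 CPM on CD, n = 6) and CAST/EiJ (195 ± 17.5, n = 7) and its highest mean was that of C57BL/6J (335 ± 122, n = 8), where single mice ran from 179 to 510 CPM. That mean did not differ from the next, PWK/PhJ at 332 CPM (adjusted p = 0.68), and without the 3 mice it was 284 ± 119 (n = 5), below PWK/PhJ, A/J and DBA/2J.

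Gclm (chromosome 3, 122245557 to 122270732, plus strand) was the gene with the clearest order of strains. On CD it went from 89.0 ± 10.1 CPM (n = 7) in CAST/EiJ through 100 ± 11.8 (n = 6) in DBA/2J, 147 ± 8.72 (n = 6) in WSB/EiJ, 152 ± 10.7 (n = 6) in PWK/PhJ, 184 ± 17.2 (n = 8) in C57BL/6J and 218 ± 6.24 (n = 7) in 129S1/SvImJ to 227 ± 28.5 (n = 5) in A/J. Of its 21 pairs of strains 19 differed on CD, and the neighbours that did not were WSB/EiJ with PWK/PhJ (adjusted p = 0.56) and 129S1/SvImJ with A/J (0.67).

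WD raised Gclm in 3 strains, and 2 of them were low on CD. In DBA/2J the lowest, median and highest mice were at 88.2, 97.3 and 122 CPM on CD and 126, 140 and 152 on WD, so that every WD mouse was above every CD mouse. The log2 fold change was 0.48 ± 0.062 (1.40-fold, adjusted p = 3.8e-09) and exceeded the mean of the other 6 strains by 0.36 ± 0.067 (adjusted p = 2.0e-04). In WSB/EiJ the mice were at 132, 147 and 156 CPM on CD and 166, 182 and 193 on WD, again without overlap (log2 fold change 0.30 ± 0.065, adjusted p = 0.00057). In CAST/EiJ the groups overlapped, at 72.2, 88.8 and 103 CPM on CD and 92.0, 104 and 116 on WD (0.22 ± 0.057, adjusted p = 0.0024). In C57BL/6J the estimate was −0.04 ± 0.057 and lay below the mean of the other strains (adjusted p = 0.011, and 0.030 without the 3 mice). These 3 rises held when any 1 mouse was left out.

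Slc7a11 (chromosome 3, 49892526 to 50443614, minus strand) was at most 0.295 CPM in all livers on CD but 3 of C57BL/6J and showed the largest fold changes of the 10 genes on WD. In 129S1/SvImJ the lowest, median and highest mice were at 0.0217, 0.0851 and 0.295 CPM on CD and 0.686, 1.03 and 1.35 on WD, which is 39 reads in all over 7 CD mice against 304 over 6 WD mice. No CD mouse reached a WD mouse, and the log2 fold change was 3.27 ± 0.59 (adjusted p = 1.1e-05), above the mean of the other strains (adjusted p = 0.040). In WSB/EiJ the mice were at 0.0235, 0.0258 and 0.0945 CPM on CD (11 reads in 6 mice) and 0.131, 0.473 and 1.00 on WD (121 reads in 6 mice), again apart (3.01 ± 0.80, adjusted p = 0.0078). In PWK/PhJ they were at 0.0422, 0.105 and 0.221 CPM on CD (34 reads in 6 mice) and 0.489, 0.643 and 1.04 on WD (245 reads in 7 mice), also without overlap (2.58 ± 0.62, adjusted p = 0.00068). With so few reads on CD these folds rest on small counts. CAST/EiJ stayed at the limit of detection on both diets, with 12 reads in 7 CD mice and 14 in 8 WD mice and 3 mice without a read in each group. Its log2 fold change was −0.13 (95% interval −2.03 to 1.77). The order of the strains on WD ran from CAST/EiJ (0.0432 ± 0.0542 CPM, n = 8) to 129S1/SvImJ (1.02 ± 0.270, n = 6), and the step from CAST/EiJ to DBA/2J (0.239 ± 0.0938, n = 7) was the one between neighbours that differed (adjusted p = 0.0016).

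Markers of recruited macrophages moved in the strains where Slc7a11 rose. Of a list of 10 such markers, 9 rose in 129S1/SvImJ, 9 in PWK/PhJ and 4 in WSB/EiJ, beside directional backgrounds of 14.5%, 15.1% and 4.97%. Their summed level per mouse was 46.0 to 72.4 CPM on CD and 141 to 243 on WD in 129S1/SvImJ. In PWK/PhJ it was 82.3 to 161 on CD and 245 to 685 on WD, and in WSB/EiJ 31.3 to 48.4 and 52.4 to 142. The same markers also rose in C57BL/6J (9 of 10 by limma-voom, 4 by edgeR and by DESeq2, with 1 lower in all), A/J (3 of 10, 5 by edgeR and 6 by DESeq2) and CAST/EiJ (1 of 10 by limma-voom, 5 by edgeR and 6 by DESeq2), and in WSB/EiJ edgeR called 7 and DESeq2 8. In DBA/2J none passed by limma-voom (1 at an unadjusted p below 0.05, 1 by edgeR and 1 by DESeq2), and the sums were 55.2 to 62.5 CPM on CD and 56.4 to 71.1 on WD. In bulk liver a change in the number of cells of a type and a change in RNA per cell cannot be told apart, and the part of these cells in the rise of Slc7a11 was not tested.

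The thioredoxin system is represented by a pair of genes that differed in their calls. Txnrd1 (chromosome 10, 82833951 to 82897712, plus strand) encodes cytosolic thioredoxin reductase, and Srxn1 (chromosome 2, 152105516 to 152111376, plus strand) encodes sulfiredoxin, which repairs over-oxidized peroxiredoxins. Txnrd1 passed the limma-voom test in 0 of 7 strains, with 1 strain at an unadjusted p below 0.05 and 1 called by edgeR and by DESeq2. That strain was C57BL/6J, with a lowest, median and highest mouse at 117, 139 and 245 CPM on CD and 110, 128 and 154 on WD (log2 fold change −0.16, 95% interval −0.30 to −0.02, adjusted p = 0.077). The highest CD mouse was one of the 3 set apart, and without those 3 the value was −0.04 (adjusted p = 0.68). In the other 6 strains the estimates lay between −0.15 and 0.05. On CD Txnrd1 was lowest in PWK/PhJ (96.8 ± 7.82 CPM, n = 6) and highest in C57BL/6J (147 ± 41.3, n = 8), and both differed from their neighbour in the order. Without the 3 mice C57BL/6J was at 133 ± 13.1 CPM (n = 5), and its difference from DBA/2J at 121 did not pass (adjusted p = 0.11).

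Srxn1 was estimated higher on WD in all 7 strains and passed the test in 3. In DBA/2J the lowest, median and highest mice were at 24.8, 29.9 and 32.6 CPM on CD and 42.0, 46.0 and 50.9 on WD, a full separation (log2 fold change 0.68 ± 0.17, 1.60-fold, adjusted p = 0.0024). In 129S1/SvImJ they were at 22.1, 27.3 and 32.3 CPM on CD and 34.8, 40.7 and 46.7 on WD, again apart (0.59 ± 0.17, adjusted p = 0.0062). In PWK/PhJ they were at 23.3, 28.9 and 34.7 CPM on CD and 33.5, 41.6 and 53.5 on WD, with an overlap of the outermost mice (0.61 ± 0.17, adjusted p = 0.0042). WSB/EiJ mice separated as well, with at most 23.0 CPM on CD and at least 25.7 on WD, but the test gave an adjusted p of 0.11 (0.47 ± 0.19). All strains share 1 estimate of a gene's spread in this fit, and leaving out the 3 C57BL/6J mice gave 0.46 for Srxn1 in WSB/EiJ with an adjusted p of 0.0059. C57BL/6J had the highest Srxn1 on both diets, at 82.4 ± 61.4 CPM on CD and 80.8 ± 19.8 on WD (n = 8 each), above A/J on CD (32.9 ± 2.36, n = 5, adjusted p = 4.2e-07) and above DBA/2J on WD (46.6 ± 2.87, n = 7, adjusted p = 4.0e-05). The 5 C57BL/6J mice on CD that were not set apart, at 43.6 to 52.5 CPM, were also above every CD mouse of the other 6 strains (at most 41.0).

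Nqo1 (chromosome 8, 107388225 to 107403206, minus strand) encodes a quinone reductase and is the gene most often used as a readout of NRF2. It passed the test upward in DBA/2J, A/J and 129S1/SvImJ, the 3 strains with its lowest CD means. A difference between strains in this diet effect was not shown (F test, adjusted p = 0.17). In DBA/2J the lowest, median and highest mice were at 1.38, 2.53 and 2.80 CPM on CD and 3.33, 4.57 and 5.61 on WD (log2 fold change 0.91 ± 0.27, 1.87-fold, adjusted p = 0.010). In A/J they were at 2.65, 3.07 and 4.21 CPM on CD and 4.57, 6.06 and 6.99 on WD (0.88 ± 0.26, adjusted p = 0.018). In 129S1/SvImJ they were at 2.45, 3.00 and 3.72 CPM on CD and 4.14, 4.98 and 5.62 on WD (0.67 ± 0.24, adjusted p = 0.027). In all 3 strains every WD mouse was above every CD mouse, and so it was in WSB/EiJ, at 5.69, 6.86 and 8.65 CPM on CD and 9.05, 9.49 and 11.0 on WD, where the test gave an adjusted p of 0.13 (0.48 ± 0.20). For A/J leaving out CD replicate 2 or 5 lifted the adjusted p to at most 0.059, and for 129S1/SvImJ 4 of 13 mice did so. Nqo1 also passed in WSB/EiJ (0.47, adjusted p = 0.047) and C57BL/6J (0.73, 5.0e-04) when the 3 C57BL/6J mice on CD were left out.

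The strains formed 2 sets in Nqo1 on CD. DBA/2J (2.35 ± 0.551 CPM, n = 6), 129S1/SvImJ (3.11 ± 0.503, n = 7) and A/J (3.24 ± 0.658, n = 5) did not differ as neighbours, and neither did WSB/EiJ (7.01 ± 1.01, n = 6), C57BL/6J (7.11 ± 4.25, n = 8), PWK/PhJ (7.35 ± 1.63, n = 6) and CAST/EiJ (7.65 ± 2.39, n = 7). The step from A/J to WSB/EiJ did (adjusted p = 2.4e-04). The place of C57BL/6J in the upper set rests on the 3 mice set apart, at 8.36 to 16.0 CPM, as its other 5 CD mice were at 3.17 to 5.23. On WD no pair of neighbours differed, although 12 of 21 pairs of strains did on each diet.

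Hmox1 (chromosome 8, 75093621 to 75100589, plus strand) encodes haem oxygenase-1, which breaks down haem and is also strongly expressed by liver macrophages. It rose in 129S1/SvImJ, PWK/PhJ and C57BL/6J. In 129S1/SvImJ the lowest, median and highest mice were at 14.4, 18.2 and 21.0 CPM on CD and 28.5, 31.6 and 42.3 on WD, with no overlap (log2 fold change 0.90 ± 0.20, 1.86-fold, adjusted p = 2.4e-04). In PWK/PhJ they were at 7.35, 14.5 and 18.1 CPM on CD and 19.7, 21.8 and 25.9 on WD, also apart (0.74 ± 0.21, adjusted p = 0.0038). In C57BL/6J they were at 21.8, 29.4 and 53.2 CPM on CD and 38.5, 47.8 and 58.6 on WD and overlapped (0.57 ± 0.17, adjusted p = 0.0069). DBA/2J was estimated to go the other way, at 22.8, 24.3 and 36.3 CPM on CD and 17.6, 20.9 and 32.2 on WD. That change did not pass (−0.27 ± 0.20, adjusted p = 0.39), but its distance from the average over the remaining strains did (−0.77 ± 0.21, adjusted p = 0.014).

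Markers of Kupffer cells, the resident liver macrophages, moved in the same 3 strains. Of 10 markers 7 rose in 129S1/SvImJ, 6 in PWK/PhJ and 5 in C57BL/6J (directional background 14.3%), and 1 in CAST/EiJ. In DBA/2J, A/J and WSB/EiJ none passed by limma-voom, at an unadjusted p below 0.05, by edgeR or by DESeq2. Clec4f, the most specific of them, was not among the markers that rose, and 1 PWK/PhJ mouse on CD had 17.9 CPM of Clec4f against 77.7 to 126 in the others. That mouse also had the lowest Hmox1 of its group (7.35 CPM against 12.3 to 18.1). Without it the log2 fold change of Hmox1 in PWK/PhJ was 0.57 (adjusted p = 0.036). How far these cells carry the Hmox1 values was not tested.

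G6pdx (chromosome X, 74409483 to 74429194, minus strand) encodes glucose-6-phosphate dehydrogenase, which opens the pentose phosphate pathway and makes the NADPH that glutathione and thioredoxin reductases spend. It is also a classical gene of lipogenesis, induced in liver by carbohydrate feeding. It fell in 4 of 7 strains. In PWK/PhJ the lowest, median and highest mice were at 19.5, 32.9 and 62.4 CPM on CD and 5.19, 7.40 and 8.40 on WD, and the groups were far apart. The log2 fold change was −2.22 ± 0.22 (0.215 of the CD level, adjusted p = 2.7e-13), which was below the mean of the other 6 strains by 1.75 (−1.75 ± 0.25, adjusted p = 1.5e-07). In DBA/2J they were at 7.80, 10.6 and 11.1 CPM on CD and 4.68, 5.60 and 7.29 on WD, without overlap (−0.77 ± 0.26, adjusted p = 0.031). In C57BL/6J they were at 9.38, 19.5 and 35.0 CPM on CD and 9.09, 10.6 and 12.0 on WD, where the lower CD mice lay within the WD range (−0.79 ± 0.19, adjusted p = 0.00089). In CAST/EiJ they were at 5.79, 7.29 and 24.6 CPM on CD and 4.95, 5.09 and 5.82 on WD and overlapped by 1 mouse of each group (−0.74 ± 0.27, adjusted p = 0.039).

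The CAST/EiJ call was not kept by 10 of the 15 leave-one-out fits. The value moved most without CD replicate 2, which was at 24.6 CPM with the next highest CD mouse at 10.1, to a log2 fold change of −0.48 (adjusted p = 0.19). The DBA/2J call passed 0.05 by little, and 7 of the 13 leave-one-out fits did not keep it (at most 0.062). In 129S1/SvImJ the mice were at 4.97, 7.31 and 8.98 CPM on CD and 6.27, 7.29 and 8.65 on WD, with an estimate of 0.01 (95% interval −0.50 to 0.53).

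G6pdx on CD separated C57BL/6J and PWK/PhJ from the rest. The other 5 strains had means from 5.53 ± 0.567 CPM (WSB/EiJ, n = 6) to 9.80 ± 6.67 (CAST/EiJ, n = 7), and no neighbours among them differed. Strains farther apart in this order could differ, as DBA/2J was above WSB/EiJ (adjusted p = 0.016). C57BL/6J at 20.1 ± 8.75 (n = 8) was above CAST/EiJ (adjusted p = 1.1e-05), and PWK/PhJ at 37.8 ± 20.3 (n = 6) was above C57BL/6J (adjusted p = 4.8e-05). Without the 3 mice C57BL/6J was at 23.5 ± 9.42 (n = 5), and both steps held (adjusted p = 9.2e-07 and 0.0069). On WD no pair of neighbours differed, although 5 of 21 pairs of strains did, and strain means ran from 4.90 to 10.7 CPM. The 6 PWK/PhJ mice on CD were themselves split, with replicates 2, 4 and 5 at 19.5 to 21.2 CPM and replicates 1, 3 and 6 at 44.7 to 62.4. The same 3 higher mice had more Me1, which encodes malic enzyme, another source of NADPH for lipogenesis, at 485 to 752 CPM against 308 to 377. The CAST/EiJ mouse with 24.6 CPM of G6pdx also had the most Me1 (94.1 CPM, others 49.8 to 89.2) and the most Pgd (48.3 CPM, others 26.4 to 39.3) of its group.

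**Figure D3:**
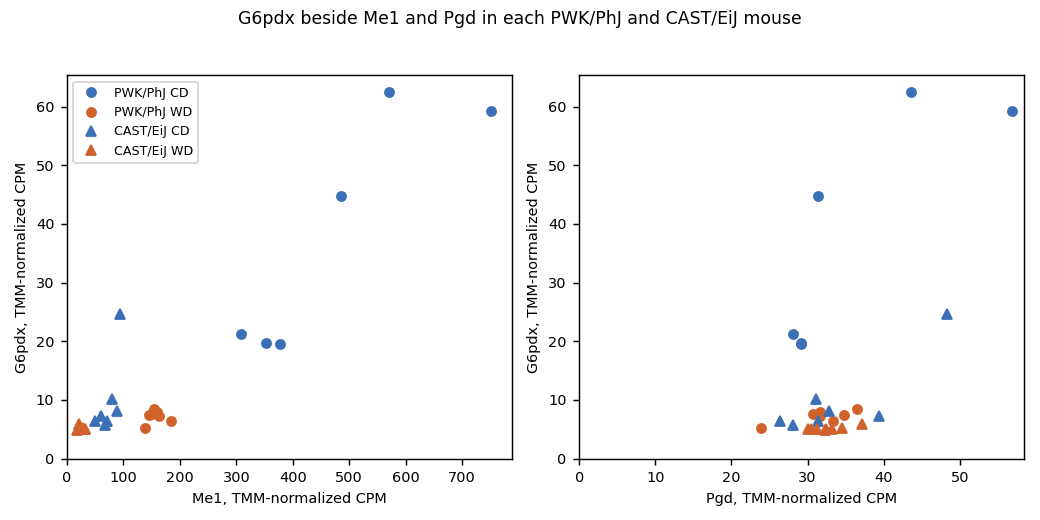
G6pdx on the vertical axis is plotted against Me1 (left) and Pgd (right) for every PWK/PhJ mouse (circles) and CAST/EiJ mouse (triangles), on CD (blue) and WD (orange), all in TMM-normalized CPM on linear axes. The 3 PWK/PhJ mice on CD with G6pdx of 44.7 CPM or more were also the highest of their group in Me1, and all PWK/PhJ mice on WD had at most 8.40 CPM of G6pdx and 184 of Me1.

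The C57BL/6J group on CD was uneven. Replicates 2, 4 and 6 had summed recruited macrophage markers of 800, 193 and 282 CPM, against at most 135 in the other 5. Other transcripts stood apart in the same mice, among them summed stellate cell markers of 1132, 582 and 549 CPM against 401 to 453, and Gsta1, a glutathione S-transferase gene, at 5.29 to 23.4 against 0.506 to 1.53. They also had Slc7a11 of 2.99, 2.82 and 1.95 CPM against 0.0396 to 0.144, and Srxn1 of 85.1, 223 and 110 against 43.6 to 52.5. Nqo1 was 16.0, 10.2 and 8.36 CPM in these mice against 3.17 to 5.23, and Hmox1 47.5, 41.6 and 53.2 against 21.8 to 34.6. For these 4 genes the 3 mice did not overlap with the other 5, while for Nfe2l2, Keap1, Gclc, Gclm, Txnrd1 and G6pdx they did. Replicate 2 belonged to cohort 1 and replicates 4 and 6 to cohort 2, and their RNA integrity numbers of 8.7, 8.8 and 8.3 were within the range of the others (7.0 to 8.9). These 3 had more Slc7a11 than any WD mouse of the strain (0.263 to 1.06 CPM).

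Without these 3 mice the count in C57BL/6J went from 2 to 5 of 10 genes. Slc7a11 (log2 fold change 2.62, adjusted p = 3.1e-06), Srxn1 (0.72, 2.3e-07), Nqo1 (0.73, 5.0e-04) and Hmox1 (0.92, 2.8e-05) were then higher on WD, and G6pdx was lower (−1.01, 7.5e-05). With all 8 CD mice the estimates were 0.73 for Slc7a11, 0.18 for Srxn1 and 0.20 for Nqo1, and none of the 3 passed (adjusted p = 0.22, 0.42 and 0.43). The mice were set aside after seeing the data, so these values are an alternative and not a test.

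**Figure D4:**
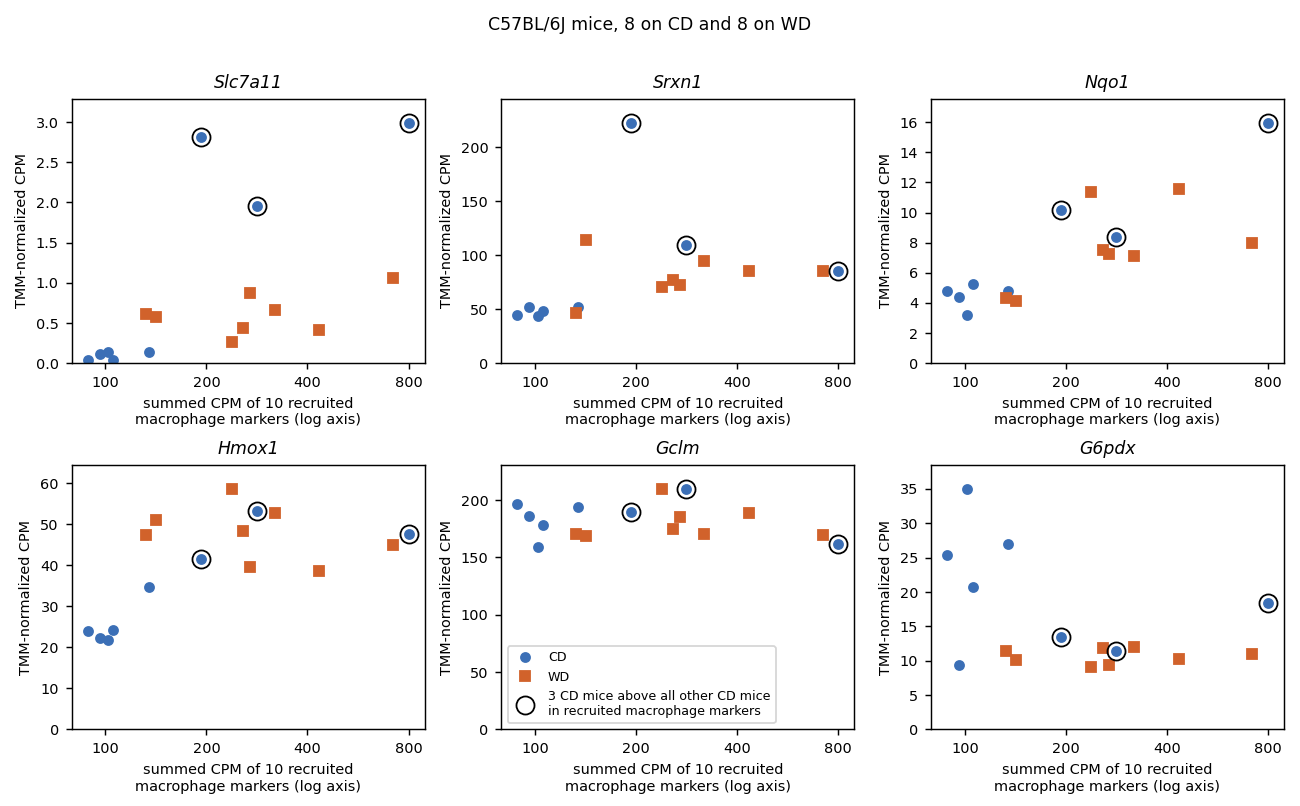
For the 16 C57BL/6J mice, 6 genes are plotted on the vertical axis (TMM-normalized CPM, linear from 0) against the summed CPM of 10 recruited macrophage markers on the horizontal axis (log axis), with CD as blue circles and WD as orange squares. The 3 ringed CD mice, at 193 CPM or more on the horizontal axis, had Slc7a11 of 1.95 to 2.99 CPM, while in Gclm they lay among the other mice.

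A further 36 genes known as NRF2 targets were listed apart from the 10. On WD 19 rose and 3 fell in 129S1/SvImJ, beside 14.5% and 13.6% of all genes called up and down. In DBA/2J 12 rose and 1 fell (10.2% and 7.77%). In WSB/EiJ it was 12 and 3 (4.97% and 3.97%), in CAST/EiJ 12 and 2 (9.77% and 9.73%) and in A/J 4 and 0 (4.39% and 4.64%). C57BL/6J had 7 up and 5 down (14.3% and 11.9%). In PWK/PhJ 3 rose and 9 fell (15.1% and 14.5%). Median log2 fold changes of the 36 ran from 0.32 in 129S1/SvImJ down to 0.04 in C57BL/6J and −0.05 in PWK/PhJ. Without the 3 mice above, C57BL/6J had 15 higher and 1 lower with a median of 0.19. For A/J, edgeR called 6 and DESeq2 8 genes higher in place of 4, and 0 lower, as at an unadjusted p below 0.05 (13 higher and 0 lower).

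The genes of this list with the largest called changes were as follows. In 129S1/SvImJ these were Gsta1 (log2 fold change 4.58), Gsta2 (1.77), both glutathione S-transferases, and Cyp2a5 (1.51), a cytochrome P450 that oxidizes coumarin and nicotine. In DBA/2J they were Ephx1 (1.32), the microsomal epoxide hydrolase, Gsta2 (1.30) and Gstp1 (−0.94). In PWK/PhJ they were Gsta1 (2.95), Cbr1 (−1.67), a carbonyl reductase, and Me1 (−1.54), malic enzyme. Me1 was also the most changed of the list in CAST/EiJ (−1.45), ahead of Osgin1 (1.20) and Ephx1 (0.86). In WSB/EiJ they were Gsta2 (2.54), Cyp2a5 (1.72) and Ephx1 (1.09), in A/J Gsta2 (2.27), Ephx1 (0.86) and Mgst1 (0.31), and in C57BL/6J Gsta1 (1.12), Osgin1 (−0.92) and Abcc3 (0.78), an exporter of conjugates. Ephx1 passed the test upward in 6 of the 7 strains, the exception being C57BL/6J (0.10). The large folds of Gsta1 rest on low levels. In 129S1/SvImJ it was at 0.0217 to 0.189 CPM on CD and 1.42 to 3.42 on WD, and in PWK/PhJ at 0.403 to 1.14 and 3.60 to 7.82.

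**Figure D5:**
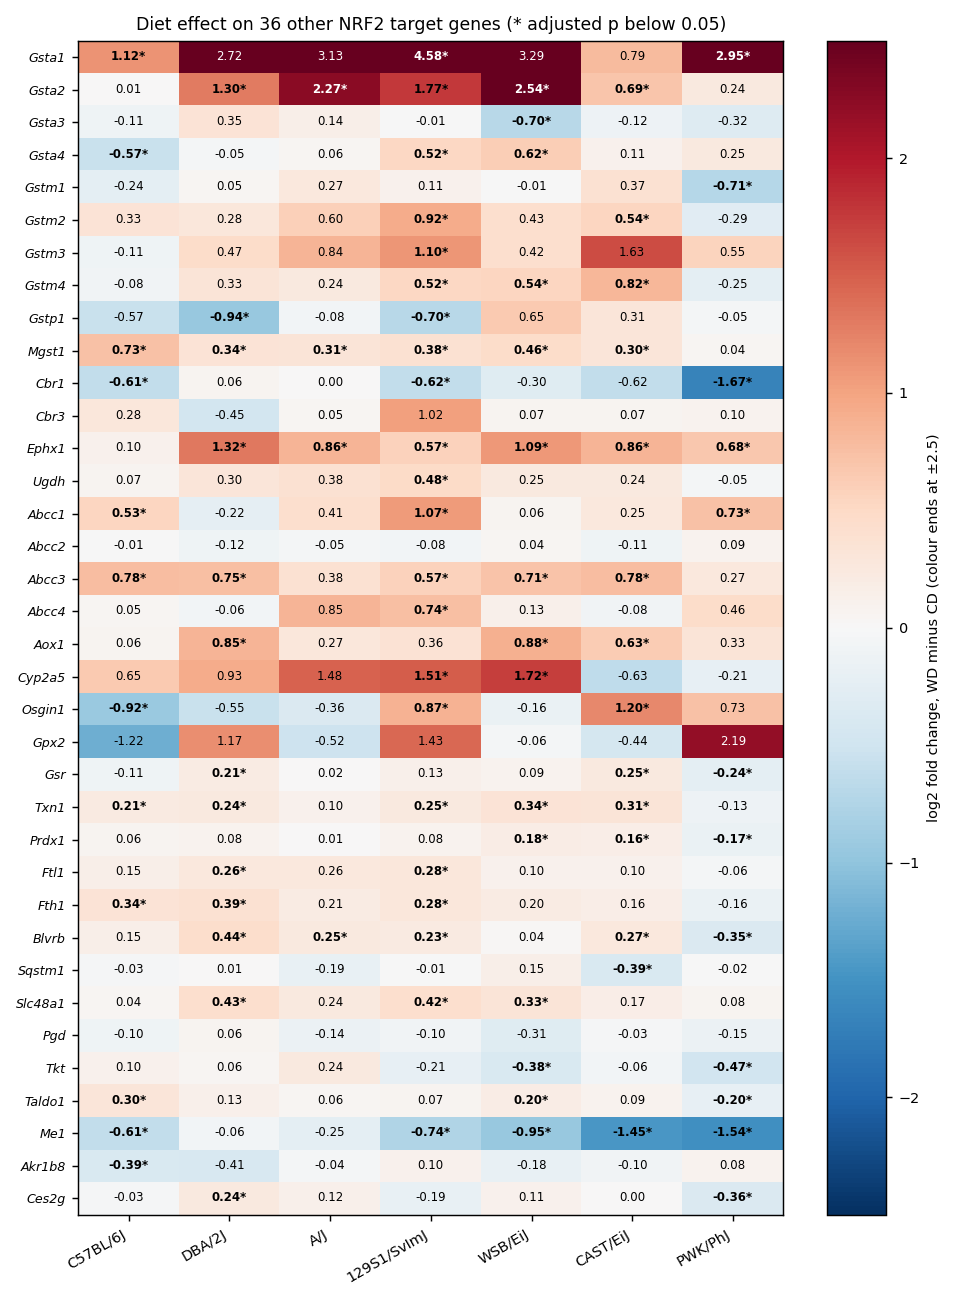
Rows are the 36 other NRF2 target genes and columns the 7 strains. Colour and number give the log2 fold change of WD over CD, with a star for an adjusted p below 0.05. The 129S1/SvImJ column held 19 starred rises, and the PWK/PhJ column 9 starred falls, Cbr1 (−1.67) and Me1 (−1.54) among them.

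Of 14 partners and regulators of NRF2, 7 fell and 1 rose in CAST/EiJ, beside 9.73% and 9.77% of all genes. In PWK/PhJ 4 fell and 2 rose (14.5% and 15.1%). In C57BL/6J 4 rose and 1 fell (14.3% and 11.9%), and so did 4 and 1 in DBA/2J (10.2% and 7.77%). In 129S1/SvImJ 2 rose and 2 fell (14.5% and 13.6%), and in A/J 1 rose (4.39%), so several of these counts were near the share of all genes. In WSB/EiJ none passed by limma-voom, with 3 at an unadjusted p below 0.05 and 1 called by edgeR and by DESeq2. In CAST/EiJ the largest were Maff (−0.62), Nfe2l1 (−0.53) and Mafk (−0.39), that is, small MAF partners and the factor NRF1. Mafg, another small MAF partner, passed there in the upward direction (0.24, adjusted p = 0.044). In C57BL/6J the largest were Maff (0.99), Mafk (0.38) and Bach1 (0.28), the last a repressor that competes at the same element.

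Some genes stand in more than 1 of these lists (Txn1, Gsr, Prdx1, Me1 and Sqstm1 among them), so their counts are not independent. Among 21 other glutathione and thioredoxin enzymes, 7 rose and 1 fell in DBA/2J, 6 and 2 in CAST/EiJ, 5 and 3 in C57BL/6J, 5 and 1 in WSB/EiJ, 3 and 5 in 129S1/SvImJ, 3 and 3 in A/J, and 3 and 6 in PWK/PhJ. Over all genes 10.2% and 7.77% were called up and down in DBA/2J, 14.5% and 13.6% in 129S1/SvImJ and 15.1% and 14.5% in PWK/PhJ. These shares were 9.77% and 9.73% in CAST/EiJ, 14.3% and 11.9% in C57BL/6J, 4.97% and 3.97% in WSB/EiJ and 4.39% and 4.64% in A/J. Several of the counts, the rises in 129S1/SvImJ and PWK/PhJ among them, were thus near the share of all genes. Gpx1, the main cytosolic glutathione peroxidase, passed upward in all 7 strains (log2 fold changes 0.18 to 0.50). Txnip, which binds and inhibits thioredoxin, passed downward in 6, with values from −0.92 in A/J to −1.75 in WSB/EiJ, and was at −0.53 without passing in PWK/PhJ. Of 4 enzymes that remove superoxide and peroxide directly, Sod3 rose in C57BL/6J (0.36) and A/J (0.53) and Sod1 fell in PWK/PhJ (−0.58), and no other test of the 4 passed by limma-voom, edgeR or DESeq2 (1 further gene each in C57BL/6J, 129S1/SvImJ and CAST/EiJ was at an unadjusted p below 0.05).

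Around G6pdx, 9 other genes of the pentose phosphate pathway and NADPH supply were tested. In PWK/PhJ 5 fell (beside 14.5% of all genes) and 0 rose, with 0 at an unadjusted p below 0.05 in the upward direction and by edgeR and DESeq2 as well. In WSB/EiJ 3 fell and 2 rose (3.97% and 4.97%), in C57BL/6J 2 fell and 1 rose (11.9% and 14.3%), in 129S1/SvImJ 2 fell (13.6%), in DBA/2J 1 fell and 1 rose (7.77% and 10.2%), and 1 fell in A/J (4.64%) and CAST/EiJ (9.73%). Counts of 1 or 2 over 9 genes are small, and in C57BL/6J they were near these shares. Me1 was lower in 5 strains, from −0.61 in C57BL/6J to −1.54 in PWK/PhJ, where it went from 474 ± 166 CPM (n = 6) to 156 ± 15.0 (n = 7). Rpia, an isomerase of the pathway, was lower in 5 strains, with −1.30 in 129S1/SvImJ as the largest. Pgd, which encodes the other NADPH-making dehydrogenase of the pathway, had values from −0.31 in WSB/EiJ (adjusted p = 0.30) to 0.06 in DBA/2J (0.85), and was at −0.15 in PWK/PhJ (adjusted p = 0.52) beside −2.22 for G6pdx.

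Markers of other cell types were called as well, beside shares of all genes between 4.39% (A/J) and 15.1% (PWK/PhJ) called up and between 3.97% (WSB/EiJ) and 14.5% (PWK/PhJ) called down. Of 10 hepatocyte markers 7 fell in 129S1/SvImJ, 5 in C57BL/6J, 5 in PWK/PhJ, 4 in A/J, 3 in DBA/2J, 3 in WSB/EiJ and 2 in CAST/EiJ, and 1 rose in C57BL/6J. Stellate cell markers rose in PWK/PhJ (7 of 10), C57BL/6J (4), 129S1/SvImJ (4) and A/J (2, and 4 by edgeR), and lymphocyte markers in 129S1/SvImJ (5 of 8) and C57BL/6J (1). Cholangiocyte markers rose in PWK/PhJ (5 of 7), 129S1/SvImJ (2, and 5 by edgeR), CAST/EiJ (1) and C57BL/6J (1, none by edgeR or DESeq2, and 6 without the 3 mice set apart), with 1 lower in DBA/2J. The 1 called by limma-voom in CAST/EiJ and in C57BL/6J was Spp1, which is also on the recruited macrophage list. Spp1 was the 1 marker of that list called in CAST/EiJ too, so these counts are not independent. Of 8 endothelial markers 2 rose and 2 fell in C57BL/6J, 2 rose in 129S1/SvImJ, 1 rose and 1 fell in PWK/PhJ, 3 fell in DBA/2J and 1 fell in WSB/EiJ. Of 5 tested red blood cell markers only Alas2 passed, upward, in 5 strains. Their part in the values of the 10 genes was not tested.

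Whether the genes vary together among mice of the same strain and diet was asked with correlations of log2 CPM after subtraction of the 14 group means (93 mice, 45 pairs, permutations within groups). By both Pearson's r and Spearman's rho 5 pairs passed after adjustment over the 45, and all were positive. Nfe2l2 rose and fell with Gclc (r = 0.43, permutation p = 6.0e-05, adjusted p = 0.0027, and rho = 0.45, p = 7.0e-05, adjusted p = 0.0016) and with Gclm (r = 0.32, p = 0.0017, adjusted 0.019, and rho = 0.31, p = 0.0044, adjusted 0.035). Gclm varied with Nqo1 (r = 0.41, p = 0.0010, adjusted 0.016, and rho = 0.41, p = 5.4e-04, adjusted 0.0081). Srxn1 varied with Nqo1 (r = 0.51, p = 0.0026, adjusted 0.020, and rho = 0.52, p = 2.0e-05, adjusted 9.0e-04) and with Slc7a11 (r = 0.56, p = 0.0027, adjusted 0.020, and rho = 0.35, p = 0.0045, adjusted 0.035). Without the 2 mice farthest from the median of the first gene the 5 coefficients r were 0.43, 0.30, 0.37, 0.45 and 0.45. The last pair rested on the 3 C57BL/6J mice, since without them r was 0.12 (adjusted p = 0.52), and Srxn1 with Nqo1 fell to 0.32 (0.13), whereas Nfe2l2 with Gclc (0.45), Nfe2l2 with Gclm (0.36) and Gclm with Nqo1 (0.57) held. Within cohorts of a group the first 2 pairs stood at r = 0.35 (adjusted p = 0.029) and 0.40 (0.014), Gclm with Nqo1 at 0.35 (0.088), Srxn1 with Nqo1 at 0.53 (0.027) and Slc7a11 with Srxn1 at 0.68 (0.011).

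The genes whose pattern over the 14 group means was most like each of the 10 were looked up among 11148 others (11149 for Slc7a11, which is itself below the level set for this search), by Pearson's r of mean log2 CPM, as a description over 14 points that share strains. For Slc7a11 they were Ccr2 (r = 0.95), the receptor that brings monocytes into tissue and one of the 10 recruited macrophage markers, Myo1f (0.94), a myosin of leukocytes, and Adcy7 (0.92). For Nfe2l2 they were Ahr (0.92), which encodes the dioxin receptor, Prim2 (0.89) and Dkc1 (0.88), and for Hmox1 Hexa (0.88), a lysosomal hexosaminidase, Rin2 (0.85) and H2-Q1 (0.85). For G6pdx they were Ybx1 (0.89), Fabp5 (0.86), a fatty acid-binding protein, and Pxdc1 (0.85), and for Nqo1 Antxr2 (0.87), Atp6v0e (0.85) and Gm20257 (0.83). For Gclc they were Tapbp (0.96), Snapc2 (0.94) and 4930402H24Rik (0.93), for Gclm Odf2l (0.94), Ints4 (0.91) and Hpgd (0.91), and for Keap1 Smpd1 (0.93), Rab28 (0.93) and Mfsd13a (0.92). For Srxn1 they were Tmem86a (0.93), Arhgap18 (0.93) and Ifi207 (0.91), and for Txnrd1 Dcun1d1 (0.91), Naip2 (0.86) and Tmem64 (0.86). None of the genes named here is one of the 10.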

How the data were processed

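Liver RNA of 93 male mice was sequenced on a BGISEQ-500. The authors aligned reads with STAR 2.7.1a to GRCm38 (mm10), and the deposited table holds raw counts per gene and mouse, not normalized. Its 4 summary lines were left out: unmapped (1.66 to 14.8% of reads), multimapping (8.03 to 12.2%), no feature (3.82 to 5.54%) and ambiguous (3.69 to 5.67%). The annotation release and strand setting are not given in the sources used here, and symbols, positions and exon lengths were taken from GENCODE M21. None of the 4278 pairs of libraries held identical values.

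Genes were filtered with filterByExpr (minimum count 10), scaled by TMM (edgeR 4.0.16, factors 0.810 to 1.27) and tested with voom and limma 3.58.1 in R 4.3.3, in 1 fit with 14 group means (79 residual degrees of freedom). P-values were adjusted by Benjamini-Hochberg over all 19110 genes within each comparison, with a threshold of 0.05. Log2 CPM for correlations used a prior count of 2, with 100000 two-sided permutations. The script was tested on simulated data. Alternatives were edgeR's quasi-likelihood test, DESeq2 1.42.0, other scaling, filters and covariates, separate fits and leaving out each mouse. The labels name no litter or donor shared between mice, and p-values measure the spread between mice taken as independent. The paper states that mice shared cages, and cage was not part of the fit. The 10 genes, the other lists and the tests were chosen with earlier results of these data known. From each other list of the pathway the 3 called genes with the largest change were named. Ephx1, Mafg, Gpx1, Txnip, Sod1, Sod3, Rpia, Pgd, Alas2, Clec4f and Spp1 were named after their values were seen.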

Additional observations from a re-analysis of the deposited data

Results flagged for a closer look

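In 7 of 140 groups of mice (10 genes, 14 groups each) the highest or lowest mouse was far from the others by Dixon's criterion at the 95% level, which chance alone gives in about 5% of groups, so the number itself is what chance gives. In C57BL/6J on CD, replicate 4 was the highest in Srxn1 (222.8 CPM, next 110) and in Txnrd1 (244.5 CPM, next 150), and it is 1 of the 3 mice with high recruited macrophage markers. In CAST/EiJ on CD, replicate 2 had 24.56 CPM of G6pdx (next 10.1), and on WD replicate 3 had 5.819 (next 5.12). In A/J on WD, replicate 3 had 10.9 CPM of G6pdx (next 6.39). In PWK/PhJ, CD replicate 6 was the lowest in Nfe2l2 (94.45 CPM, next 122) and WD replicate 2 the highest in Slc7a11 (1.042 CPM, next 0.723).

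The diet effect differed between strains for 6 genes by limma's F test over the 7 strains: Nfe2l2 (adjusted p = 0.001803), Keap1 (0.01752), Gclm (1.417e-05), Slc7a11 (0.0007756), Hmox1 (0.004861) and G6pdx (1.472e-06).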

How the results depend on the processing

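No called change of the 10 genes turned its direction under any alternative run. No paired analysis was possible because the labels give no replicate numbers or pairs, and the numbers used here follow the order of the samples. With upper-quartile factors, no filter, RNA integrity as a covariate or a separate fit for each strain, the count in CAST/EiJ went from 2 to 1 (G6pdx lost in each). Without a filter DBA/2J went from 5 to 3 (Nfe2l2 and G6pdx lost), and in a separate fit A/J went from 1 to 3. With at least 10 counts in every mouse, WSB/EiJ went from 2 to 1, since Slc7a11 was not tested. With sample quality weights C57BL/6J went from 2 to 5 and WSB/EiJ from 2 to 4. Without the 3 C57BL/6J mice on CD, an alternative chosen after seeing the data, the counts were 5 in C57BL/6J and 4 in WSB/EiJ. Leaving out 1 mouse gave 2 to 5 genes in C57BL/6J (5 without CD replicate 2, 4 without CD replicate 4), 3 to 5 in DBA/2J (3 without WD replicate 2 or 4 or CD replicate 4 or 5), 0 to 1 in A/J (0 without CD replicate 2 or 5), 3 to 6 in 129S1/SvImJ (3 without WD replicate 4), 2 to 3 in WSB/EiJ, 1 to 3 in CAST/EiJ (1 without CD replicate 3 or 6 or any WD mouse but replicate 3) and 5 to 5 in PWK/PhJ. The correlated pairs went from 5 to 9 with upper-quartile factors, 8 within cohorts and 3 without the 3 C57BL/6J mice. For the effect in 1 strain against the others, the count went from 1 to 2 in C57BL/6J by edgeR. In 129S1/SvImJ it went from 2 to 1 without a filter (Slc7a11 lost) or with at least 10 counts in every mouse (Slc7a11 not tested, Nfe2l2 lost at an adjusted p of 0.051, G6pdx gained), and to 4 with sample quality weights. In CAST/EiJ it went from 0 to 2 without the 3 mice. Upper-quartile factors lost the F test of Keap1 (0.052) and both Nfe2l2 effects against the other strains (0.056 in DBA/2J, 0.091 in 129S1/SvImJ), and without a filter the DBA/2J one was at 0.097. Beyond these construction effects the cause was not tested. Of the 930 single-gene values with 1 mouse left out, 37 lost and 11 gained a call. For Slc7a11, with 12 and 14 reads in all in CAST/EiJ, the interval of the change spans −2.03 to 1.77 on the log2 scale.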
